A study of Ovis aries with 18 samples.

Results

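The SNPs described here are those annotated with a single consequence term that places them at the front of a gene, either in the 5' untranslated region (5' UTR) or upstream of the transcript. They were taken from the deposited table of SNP counts on the autosomes and number 502 of 24111 autosomal SNPs, out of 24355 SNPs in all. The 5' UTR term holds 313 SNPs in 195 genes and the upstream term 189 SNPs in 70 genes, 264 genes in all, with THRAP3 the 1 gene in both. The table counts the reads of both alleles, reference and alternate, per SNP and animal, and only animals called heterozygous were used to compare the alleles. RNA came from the perirenal adipose tissue of 18 fetal sheep at gestation day 132, 16 female and 2 male, singletons sharing a common sire. All were pure bred merino, wild type and untreated, so there is 1 group and no contrast between treatments. The sequencing lane of each sample is not given and was not examined.

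Before birth, fat around the kidney of the lamb is largely brown fat, which makes heat after delivery through uncoupled mitochondria. The 5' UTR of an mRNA lies between its cap and its start codon and takes part in setting how often the mRNA is translated, while the sequence upstream of a gene holds its promoter. In a heterozygous animal both alleles share the same nucleus. Unequal reads from them, called allelic imbalance (AI), can come from sequence differences acting on the same chromosome copy. The authors of the study also name genomic imprinting and stable expression of a single allele as sources. Any difference in how well reads of each allele are aligned enters as well.

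Markers of the tissue had reads. UCP1, the uncoupling protein of brown adipocytes, had a median of 11578 reads per animal over 5 SNPs, and ADIPOQ, the adipocyte hormone adiponectin, a median of 19014 over 13 SNPs. CIDEA, DIO2, PPARGC1A and EBF2 of brown adipocytes and PLIN1, LEP and CIDEC of adipocytes had reads too, whereas COX7A1, ELOVL3, FABP4, LPL and PPARG hold no SNP in the table. Of other cell types, the endothelial gene VWF had a median of 476.5 reads over 33 SNPs, the fibroblast gene COL3A1 5810.5 over 13, and the macrophage gene CD163 27.5 over 4. Total reads at all SNPs of the table, chromosome X included, ran from 2970824 in fetus 2 to 5334585 in fetus 5. Each fetus was heterozygous at 226 to 301 of the 502 SNPs, with a median depth at those SNPs of 36 to 72.5 reads. Fetus 10, labelled female, was heterozygous at 29.1% of 244 SNPs on chromosome X, where the other females had 54.1% to 69.7% and the males 25.4% and 32.4%; only autosomal SNPs enter the results below.

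Among SNPs whose homozygous fetuses had few reads of the other allele, the widest allelic difference was in the 5' UTR of ACSM1, an acyl-CoA ligase of medium-chain fatty acids. Its reference allele at position 18189381 of chromosome 24 (Oar v3.1, as all positions) made up 0.132 of reads. Wide differences were also found in the 5' UTR of NGLY1, PROCR, MPPE1 and PLD3, and at MGST3, a membrane glutathione transferase, the reference share was 0.633 over 11038 reads. AI, taken as an adjusted p under 0.05 in a Poisson likelihood ratio test of reads summed over heterozygous animals, was found at 211 of 501 tested SNPs (42.1%), beside 37.9% of all autosomal SNPs tested. It was found at 134 of 312 5' UTR SNPs (42.9%) and at 77 of 189 upstream SNPs (40.7%), and in 114 of the 264 genes. Other terms had 34.3% for synonymous, 41.0% for missense, 42.2% for 3' UTR and 40.1% for downstream SNPs. Among the 606 tested synonymous SNPs of the same genes, 228 (37.6%) had AI. With animals as replicates in limma, 129 of 500 SNPs (25.8%) passed, beside 20% of all autosomal SNPs, and 71 genes held at least 1 of them.

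Most of these SNPs had alleles close to parity. The median reference share was 0.516, beside 0.518 over all autosomal SNPs, and the median distance from 0.5 was 0.0367 beside 0.0339. In the far tail, 56 (11.2%) lay more than 0.2 from parity, beside 4.81% of all autosomal, 8.26% of 3' UTR, 7.26% of missense and 2.34% of synonymous SNPs. Reference alleles were the higher at 152 SNPs with AI, where 28.9% of all tested autosomal SNPs were called in that direction, which is 72.0% of the 211 beside 76.2% over all. When the test was centred on 0.517, the median share of synonymous SNPs, in place of 0.5, that share of called SNPs was 56.3%. Transitions were 63.5% of the SNPs and 85.8% of synonymous SNPs.

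Reads of animals called homozygous bear on the far tail. At 34 SNPs of 17 genes, animals called homozygous had over 2% of their reads from the allele they were called to lack, with a median of 7.73% and a highest value of 26.8%, where the median over all 502 was 0. Of these 34, 33 had AI, 26 had another SNP within 5 bp, and their median reference share was 0.82. A condition chosen after seeing the data kept the 449 SNPs with homozygous animals at 2% or less, over at least 20 reads: 162 of 448 tested (36.2%) had AI, beside 33.8% of all autosomal and 32.6% of synonymous SNPs under the same condition. It was not met by 53 of the 502 SNPs, 17 of them with no homozygous fetus, beside 2122 of 24111 autosomal SNPs. Of the 53, 49 (92.5%) had AI and 41 (77.4%) lay more than 0.2 from parity, beside 81.9% and 42.6% of all autosomal SNPs that did not meet the condition. Among SNPs that met the condition, 15 (3.35%) lay that far from parity, beside 1.31% of all autosomal SNPs: none of the 169 upstream SNPs, and 5' UTR SNPs of PROCR, PLD3, MPPE1, ACSM1, NGLY1, CCBL1 and MATR3. Another SNP within 5 bp was present for 73 SNPs, of which 57 (78.1%) had AI, while 154 of 428 without one (36.0%) did, beside 67.8% and 34.5% of all autosomal SNPs; the part of alignment in this was not tested. Genotypes were called from the same RNA reads, so an animal in which only 1 allele was seen does not enter as heterozygous.

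Genes of mitochondrial energy and fatty acid oxidation held 38 of the SNPs in 9 genes, of which 23 had AI (60.5%), 18 with the reference and 5 with the alternate allele higher. Over SNPs of every term in genes of this list 62.1% had AI, and over all autosomal SNPs 37.9%. The median reference share of this list was 0.531, beside 0.518 over all autosomal SNPs. MGST3, which detoxifies lipid peroxides, carries A/G at position 115782311 of chromosome 1 in its 5' UTR, alleles being given with the reference first. The reference share in 9 heterozygous fetuses was lowest at 0.604 in fetus 5, had a median of 0.629 and was highest at 0.717 in fetus 12, with a mean of 0.636 ± 0.0343 (SD). All 9 fetuses had more reads of the A allele, at 971 to 1609 reads each, so the direction did not rest on any single animal. The log2 ratio of A to G reads was 0.81 ± 0.09 (SE, adjusted p = 3.41e-05 by limma; exact two-sided sign-flip permutation p = 0.00391). The level at this SNP differed between the homozygotes in the same direction: it was 325, 373 and 431 reads per 1000000 of an animal's SNP reads (rpm; lowest, median, highest) in 5 A/A fetuses and 187, 198 and 221 in 4 G/G fetuses. The ranges did not overlap, and the 9 heterozygotes lay between the medians, at 245, 285 and 311. The ratio of homozygote medians was 1.89 and that of allele reads within heterozygotes 1.72. MGST3 holds no synonymous SNP to compare with, and homozygous fetuses had 0.0366% of reads from the other allele.

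ACSM1 carries 6 SNPs in its 5' UTR, from 18189323 to 18189381 on chromosome 24, 58 bp apart. At C/A 18189381 the C share in 7 heterozygous fetuses was 0.0649 in fetus 18, 0.114 at the median and 0.209 in fetus 10, with a mean of 0.126 ± 0.0532 (SD; exact sign-flip permutation p = 0.0156). The A allele had more reads in all 7, and the log2 ratio of C to A reads was -2.89 ± 0.22 (SE, adjusted p = 3.55e-06). The SNPs at 18189339, 18189352 and 18189366 had reference shares of 0.135 to 0.14, while A/G 18189324 was turned the other way at 0.811, with the reference allele higher in 7 of 8 fetuses. These SNPs lie close enough to be read by the same fragments and are not independent of each other. Levels of ACSM1 varied widely among fetuses homozygous for C at 18189381, from 8.31 to 167 rpm with a median of 50.2 in 10 fetuses, and were 84.7 to 206 with a median of 132 in the 7 heterozygotes, so the ranges overlapped. In the 1 fetus called homozygous for A, fetus 12, 0.0408 of reads were C. No coding SNP of ACSM1 is in the table.

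NDUFS1 of this list and another mitochondrial gene, CHCHD3, were nearer parity. NDUFS1, a subunit of respiratory complex I, had a reference share of 0.513 (adjusted p = 0.0920) over 6664 reads at T/C 207195221 of chromosome 2. CHCHD3, which shapes mitochondrial cristae, had 0.522 over 10122 reads at C/G 96763692 of chromosome 4, past the likelihood ratio test (adjusted p = 5.10e-05) but not limma (adjusted p = 0.316) nor the test centred on 0.517.

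Genes of lipid synthesis, storage and adipocyte regulation held 18 SNPs in 7 genes; 12 had AI (66.7%), beside 44.1% of SNPs of every term in the list and 37.9% of all autosomal SNPs. Of the 12, 5 are in INSIG2 and 3 in INSR, in which values are uncertain (below). Under the condition on homozygous fetuses 7 of 13 SNPs had AI, beside 40.1% for the list over every term. The reference allele was higher at 7 and the alternate at 5, with a median reference share of 0.513. AGPAT6, an acyltransferase that starts glycerolipid synthesis, carries G/C at 35017099 of chromosome 26, where the G share in 6 heterozygous fetuses was 0.383 in fetus 14, 0.409 at the median and 0.447 in fetus 11, with a mean of 0.411 ± 0.0266 (SD). The C allele was the higher in 6 of 6, with a log2 ratio of G to C reads of -0.52 ± 0.11 (SE, adjusted p = 0.0104 by limma; exact permutation p = 0.0312). Levels were 40.9, 45.7 and 51.5 rpm in 5 G/G fetuses, 51.1, 55.6 and 63.0 in the heterozygotes and 53.7, 63.9 and 69.7 in 7 C/C fetuses. The homozygotes did not overlap, and the ratio of their medians, 0.716, was close to the allele ratio within heterozygotes, 0.698. At 35016936, 163 bp away in the same 5' UTR, the share was 0.486.

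Of the lipid droplet coat genes, PLIN3 had the alternate allele higher at 16881794 of chromosome 5 in 8 of 8 fetuses (reference share 0.387, 0.452 and 0.476 at lowest, median and highest; adjusted p = 0.0272 by limma), and the matched reference allele of its synonymous SNP 5669 bp away had a mean share of 0.429. At 16881796, 2 bp on, the share was 0.450, past the likelihood ratio test but not limma (adjusted p = 0.0558). PLIN4 at 17192676 of the same chromosome had 0.496, without AI. All 4 synonymous SNPs of each gene had AI, at 0.441 to 0.631 in PLIN3 and 0.526 to 0.772 in PLIN4, and the genes were not tested against each other. For INSIG2, which holds back sterol synthesis, 4 SNPs from 182237695 to 182237702 of chromosome 2 had shares of 0.697 to 0.732, but homozygous fetuses at 182237701 had 20.7% of reads from the other allele, and 182237720 was at 0.443. INSR, the insulin receptor, had 0.864 at upstream SNP 13734654 of chromosome 5 in 6 of 6 fetuses, where 12 fetuses called homozygous had shares of 0.857 to 1, and 0.599 at 13734644, 10 bp away. The upstream SNPs of INSR lie between its coding SNPs in the table, so their place before the gene is in doubt. The values at both INSIG2 and INSR are therefore uncertain as allelic differences.

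Genes whose mRNAs are known to be regulated through their 5' UTR held 11 SNPs in 7 genes, and 8 had AI (72.7%), all with the reference allele higher; ribosome and translation genes held 8 SNPs in 5 genes, of which 7 had AI (87.5%) in the same direction. Over every term these lists had AI at 61.9% and 53.0% of SNPs. Under the condition on homozygous fetuses it was 5 of 8 and 6 of 7 SNPs, beside 56.4% and 49.3%. The median reference shares of these lists were 0.536 and 0.537. EEF2, the elongation factor that moves the ribosome, had 0.520 over 15640 reads at upstream SNP 17602330 of chromosome 5. Its share was 0.496, 0.519 and 0.547 at lowest, median and highest, with the reference allele higher in 10 of 12 fetuses, past the likelihood ratio test (adjusted p = 2.56e-06) but not limma (adjusted p = 0.168) nor the test centred on 0.517.

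AARS, the alanyl-tRNA synthetase, had AI at each of its 4 upstream SNPs on chromosome 14. The share at T/C 1195314 was 0.607, higher for the reference in 10 of 10 fetuses (lowest 0.545, median 0.599, highest 0.681; limma adjusted p = 0.000401), and the other 3, at 0.533 to 0.553, did not pass limma; at 1195375 (0.533) the call was also lost when the test was centred on 0.517. STRAP, which takes part in assembling splicing particles, had 0.652 at C/A 198855996 of chromosome 3, with all 18 fetuses called heterozygous, from 0.593 in fetus 5 to 0.705 in fetus 14. With no homozygous fetus at STRAP, the reads cannot show that this SNP separates 2 alleles of 1 locus. CDK4, the cyclin-dependent kinase of early cell cycle, had 0.534 at upstream SNP 161621398 of chromosome 3 (limma adjusted p = 0.0138), with the reference allele higher in 13 of 15 fetuses, a call lost in the likelihood ratio test centred on 0.517, and 0.510 at 161621332.

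Transcription, chromatin and splicing genes held the most SNPs of any list, 50 in 21 genes; 33 had AI (66.0%), beside 34.3% of SNPs of every term in the list and 37.9% of all autosomal SNPs. Of the 33, 26 were in THRAP3, MZF1, MATR3, LUC7L and PNISR, mostly in runs of adjacent SNPs whose values are uncertain (below). Of the 29 SNPs that met the condition on homozygous fetuses, 13 had AI, beside 25.2% for the list over every term. The reference allele was higher at 26 of the 33 and the alternate at 7, with a median reference share of 0.553. THRAP3, a splicing and transcription coactivator protein, was alone in holding both kinds of SNP. At A/G 10941416 of chromosome 1, in its 5' UTR, the A share in 11 heterozygous fetuses was 0.224 in fetus 14, 0.317 at the median and 0.5 in fetus 8, with a mean of 0.352 ± 0.0914 (SD, sign-flip permutation p = 0.00195, limma adjusted p = 0.000818). The G allele was thus never the lower, while the upstream SNP 10939521 of the same gene had 0.491. Levels at 10941416 were not ordered by genotype, with medians of 10.1 rpm in 2 A/A fetuses, 17.9 in heterozygotes and 13 in 5 G/G fetuses. Upstream SNPs from 10939870 to 10939888 lie within 18 bp of each other and had shares from 0.444 to 0.876. Fetuses called homozygous for the reference had shares of 0.887 to 0.942 at 10939880 and 0.923 to 0.978 at 10939887, overlapping the heterozygotes, whose highest values were 0.909 and 0.930. At 10939870 they had 0.928 to 0.980, apart from the 3 heterozygotes at 0.805 to 0.860, with 4.11% of homozygote reads from the other allele. At C/G 10939885 most of the 13 fetuses were near parity, with a median of 0.481, but fetus 4 had 0.160 and fetus 12 had 0.281; without fetus 4 the summed share was 0.472 and no longer past the test.

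MATR3, a nuclear matrix RNA-binding protein, had shares of 0.699 to 0.870 at 4 SNPs from 47998065 to 47998068 of chromosome 5, adjacent positions with A and T alleles. At 47998065, 7 heterozygous fetuses had 0.821 to 0.905 and 11 fetuses called homozygous for the reference 0.899 to 0.995, while 11 bp from the run, at 47998079, the share was 0.571 with the reference allele higher in 7 of 7 fetuses (limma adjusted p = 0.0226). PNISR, a splicing-associated protein, had 0.732 to 0.738 at 3 SNPs from 37452635 to 37452639 of chromosome 8 in 17 heterozygous fetuses. LUC7L, a splicing factor of the 5' splice site, had 0.828 at 192591 of chromosome 24 and 0.572 at 192592, the next base, where shares ran from 0.259 to 0.732. AI at 192592 was lost by limma and without fetus 7 or fetus 14 (0.548 and 0.553). MBNL1, the muscleblind splicing regulator, was not in this list and had 0.816 at 233611750 of chromosome 1, with 20.2% of reads in homozygous fetuses from the other allele. MZF1, a zinc finger transcription factor, had 7 SNPs within 13 bp from 62699417 to 62699430 of chromosome 14, each called heterozygous in 17 or 18 fetuses, with reference shares of 0.218 at 62699417 and 0.791 only 3 bp on. In PNISR, LUC7L, MBNL1 and MZF1, in the MATR3 run and in the upstream run of THRAP3, neighbouring variants or reads of the other allele in homozygotes lie beside each large value, which leaves them uncertain. POLR3GL, a subunit of RNA polymerase III, had 0.467 to 0.556 at 3 SNPs, with AI by limma at 98313609 of chromosome 1 (0.556, reference higher in 8 of 9 fetuses, adjusted p = 0.0443). CRAMP1L, a chromatin protein outside the list, held 12 upstream SNPs on chromosome 24 at 0.498 to 0.583 with AI at only 1272083. That call was lost by limma, with the test centred on 0.517, and without fetus 9, 13 or 18 (0.565, 0.572 and 0.572).

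Genes of protein folding, degradation and secretory traffic held 32 SNPs in 15 genes, of which 15 had AI (46.9%), beside 34.4% of SNPs of every term in the list and 37.9% of all autosomal SNPs. NGLY1 and SAR1A hold 4 each of the 15 and NBR1 2. Under the condition on homozygous fetuses 8 of 23 SNPs had AI, beside 30.4% for the list over every term, so the list was then near its background. The reference allele was higher at 13, and the median share was 0.533. NGLY1 removes sugar chains from misfolded glycoproteins and holds 5 SNPs in its 5' UTR on chromosome 26. At C/T 38515852 the C share in 6 heterozygous fetuses was 0.573 in fetus 6, 0.801 at the median and 0.884 in fetus 13, with a mean of 0.763 ± 0.109 (SD, exact permutation p = 0.0312, limma adjusted p = 0.00168). The C allele had more reads in 6 of 6, and not a single T read was seen in the 12 fetuses called homozygous for C. The 12 C/C fetuses had 28.1, 59.3 and 98.9 rpm and the 6 heterozygotes 19.7, 26.1 and 40.1, ranges that overlap with the heterozygotes mostly at the lower end. Shares at 38515643, 38515665 and 38515666 were 0.718 to 0.745, while 38515445, the farthest from them, had 0.553 without passing the test.

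NBR1, a receptor of selective autophagy, had 0.920 at upstream SNP 42636126 of chromosome 11 in 5 heterozygous fetuses, from 0.907 to 0.929, where 13 fetuses called homozygous had 0.921 to 0.975. With 5 animals the exact permutation p cannot go below 0.0625, which is its value there. At NBR1 42636271, between this SNP and 42636646, the share was 0.518. The upstream SNPs of NBR1 lie on both sides of its coding SNPs, which leaves the gene they belong to uncertain. SAR1A, the GTPase that starts vesicle coats at the endoplasmic reticulum, had 0.755 to 0.840 at 4 upstream SNPs within 7 bp, from 26189914 to 26189921 of chromosome 25, with homozygous fetuses at 0.904 to 0.948. RAB1B, a GTPase of transport to the Golgi, had 0.507 over 7142 reads at 43632981 of chromosome 21. Outside this list, PCMTD1, of the protein repair methyltransferase family, had 0.847 at 33869193 of chromosome 9 in 16 fetuses, and its 2 homozygous fetuses had 0.886 and 0.905. CYHR1 on the same chromosome, also outside it, had 0.865 at upstream SNP 13432029, with 4 homozygous fetuses at 0.934 to 0.968, and 0.466 and 0.512 at 13432156 and 13432186. At NBR1 42636126, SAR1A, PCMTD1 and CYHR1 the shares of fetuses called homozygous and heterozygous thus lay close together.

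Cytoskeleton and adhesion genes held 5 SNPs in 4 genes, of which 3 had AI with the reference allele higher, beside 43.6% of SNPs of every term in the list and 37.9% of all autosomal SNPs. Over all calls 76.2% had the reference allele higher. The median share was 0.550. ACTB, beta-actin, had 0.563 at C/G 50420625 of chromosome 11, from 0.532 to 0.595 over 12 fetuses and higher for the reference in each (limma adjusted p = 0.000333), while its homozygotes had median levels of 150 and 149 rpm. The table gives the symbol ACTB to SNPs of chromosomes 3 and 22 as well, so the actin copy that was read is uncertain. CAPN1, a calcium-activated protease, had 0.575 at upstream SNP 42738103 of chromosome 21 (reference higher in 9 of 10, limma adjusted p = 0.0301) and 0.550 at 42738098. CAPN2 was at 0.488 and TPM2, a tropomyosin, at 0.516, neither past the likelihood ratio test, which CAPN2 passed only when it was centred on 0.517. COL4A2, a basement membrane collagen and the 1 extracellular matrix gene, had 0.535 at 84345722 of chromosome 10, past the likelihood ratio test (adjusted p = 0.0204) but not limma (adjusted p = 0.142), nor the test centred on 0.517, and not without fetus 15 or fetus 18 (0.529 and 0.532).

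Immune genes held 6 SNPs in 3 genes, 4 of them in TRIM65, and 1 had AI, beside 44.6% of SNPs of every term in the list and 37.9% of all autosomal SNPs. The median reference share was 0.470. The SNP with AI was in PROCR, the endothelial protein C receptor, at A/G 64012789 of chromosome 13. The A share in 10 heterozygous fetuses was 0.134 in fetus 6, 0.282 at the median and 0.457 in fetus 15, with a mean of 0.278 ± 0.102 (SD), and G was the higher in 10 of 10 (log2 ratio -1.42 ± 0.21, SE; limma adjusted p = 0.000204; permutation p = 0.00195). Read depth was 34 to 72 per fetus, which limits the precision of each share. Levels were 8.25, 10.7 and 16.4 rpm in the heterozygotes and 12, 15.2 and 20.4 in 8 G/G fetuses. IRF1, an interferon-response transcription factor, had 0.486 at 19485286 of chromosome 5.

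A comparison with a synonymous SNP of the same gene asked whether reads at the front of the gene gave the same imbalance as reads of its coding part. The 5' UTR SNPs of MPPE1, a phosphodiesterase that acts on lipid-anchored proteins on their way to the cell surface, departed most clearly: its alleles were near parity in the coding part and far from it in the 5' UTR. Partners were available for 181 SNPs in 96 genes, each with at least 5 fetuses heterozygous at both SNPs, at least 20 reads at each and alleles matched through genotype calls. Of these, 24 (13.3%) in 13 genes differed from the partner at an adjusted p under 0.05 by limma, 14 upward and 10 downward, beside 5.76% of all 11389 autosomal SNPs with a partner. It was 16 of 96 5' UTR SNPs (16.7%) and 8 of 85 upstream SNPs (9.41%), beside 4.52% for synonymous, 5.49% for missense and 11.8% for 3' UTR SNPs. The median size of the difference in log2 ratio was 0.24, beside 0.17 over all. Partners lay farther away, at a median of 5217 bp, beside 2256 bp over all, 2032 bp for synonymous and 4684 bp for 3' UTR SNPs. An exact two-sided sign-flip permutation test, adjusted the same way, kept 2 calls, both of MPPE1, since few fetuses limit its smallest p. Many SNPs had no partner: 92 of the 5' UTR and 49 of the upstream SNPs are in genes with no synonymous SNP.

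At MPPE1, on chromosome 23, G/T 43101030 had a reference share of 0.182, 0.314 and 0.414 (lowest, median, highest) and C/T 43101042 of 0.567, 0.70 and 0.861 in 14 heterozygous fetuses. Genotype calls place T of the first with C of the second, so the same chromosome copy was the higher at both SNPs. Their partner at 43096342 had a share of 0.506 ± 0.0542 (SD) in the 14 fetuses compared with 43101042. The differences in log2 ratio were -1.21 ± 0.12 (SE, adjusted p = 2.29e-05, lower in 13 of 13) and 1.34 ± 0.12 (adjusted p = 3.44e-06, higher in 14 of 14). Levels had the same order in the few homozygotes of 43101042, at a median of 13.6 rpm in 3 C/C fetuses and 4.63 in the 1 T/T fetus.

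PLD3, a lysosomal nuclease, carries G/C 48866665 on chromosome 14, where the G share was 0.217, 0.333 and 0.5 at lowest, median and highest in 9 fetuses. The difference from its partner, at 0.514 ± 0.0426 (SD), was -1.17 ± 0.21 in log2 ratio (adjusted p = 0.0129, lower in 8 of 8). Its other 5' UTR SNP, T/C 48866824, was at 0.729, higher for the reference in 7 of 7, and had no partner. For CCBL1, a kynurenine aminotransferase with strong imbalance in its coding part, C/A 7480515 of chromosome 3 had 0.723 and the partner 0.876 in the same 8 fetuses, a difference of -1.39 ± 0.22 (adjusted p = 0.00645, 8 of 8).

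Among the upstream SNPs, TRIM65, an E3 ubiquitin ligase of innate immunity, differed downward by -0.67 to -0.71 at 3 upstream SNPs in 7 of 7 fetuses from a partner at 0.591; at 54744022 and 54744035 of chromosome 11 the call was lost without fetus 5, 7, 8, 10 or 17, with values from -0.61 to -0.71. AARS 1195314 differed by 0.43 ± 0.10 (adjusted p = 0.0335, 9 of 10), a call lost without any of fetuses 1, 2, 4, 5, 7, 10, 12 or 14, at 0.37 to 0.44, and also when only pairs more than 500 bp apart were kept, at 0.43. In the 5' UTR, EEPD1, which takes part in DNA repair and cholesterol efflux, differed by 0.69 ± 0.11 (adjusted p = 0.00778, 7 of 7).

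At ADRA1A, an adrenergic receptor, 5' UTR SNPs were compared with 2 different partners in different numbers of fetuses, and were not tested against each other. SNPs 38638214 and 38638322 of chromosome 2 had shares of 0.403 and 0.409 in 15 fetuses, close to a partner at 0.402. From the other partner 38638514 differed by 0.42 (adjusted p = 0.423) in 9 fetuses, and 38638714, 38638715 and 38638718 differed upward by 0.71 to 0.74 in 7 of 7 fetuses, at a median of 24 or 25 reads; the calls at 38638714 and 38638718 were lost without fetus 8 (0.66 and 0.68) or fetus 15 (0.70 and 0.71), and those at 38638714 and 38638715 with a minimum of 10 reads (0.54 and 0.56). MKKS, a chaperonin-like protein of the ciliary base, differed by 0.73 ± 0.16 at 3175384 of chromosome 13 (adjusted p = 0.03, 8 of 8), but the direction turned to -0.04 with the nearest synonymous SNP as partner, and the call was lost without fetus 5, 12, 13 or 16 (0.65 to 0.70). LUC7L 192592 differed by 0.77 ± 0.16 (adjusted p = 0.0225, 9 of 9), lost without fetus 13 at 0.72. The 9 fetuses compared, of 11 heterozygous, had shares of at least 0.5, so the lowest shares at this SNP did not enter. HBBB, a beta-globin gene, had 4 SNPs 80 to 106 bp from their partner that differed by -0.34 to -0.69 in every fetus compared; globin genes are near copies of each other, so these reads are uncertain in source. PRLR, the prolactin receptor, is named because it was the last of the 13 genes, after its values were seen: it differed by 0.61 ± 0.12 (adjusted p = 0.0292, 7 of 7), lost without fetus 4, 5, 6 or 7 at 0.59 to 0.63 and, at 0.54, when fetuses were weighted by counting error.

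Where a SNP and its partner both had AI, they mostly pointed to the same chromosome copy: the same allele was higher in 34 of 38 SNPs (89.5%) in 22 genes, beside 109 of all 181 with a partner (60.2%). Over 185 genes with both kinds of SNP, the median distance from parity with counting error removed was 0.0558 at the 5' UTR and upstream SNPs and 0.0440 at synonymous SNPs, larger at the former in 108 genes (58.4%). Under the condition on homozygous animals it was larger in 103 of 177 (58.2%). These shares are descriptions and were not tested.

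Levels in homozygotes gave a second view of the same SNPs in other fetuses, as at MGST3 and AGPAT6. Among SNPs that met the condition on homozygous animals and had at least 2 fetuses of each homozygous call, the homozygote of the higher allele had the higher median level at 41 of 49 SNPs with AI (83.7%) and at 47 of 75 without (62.7%). Over all autosomal SNPs the shares were 85.5% and 61.0%, so the 5' UTR and upstream SNPs were near the background. Both views read the same position, and a difference in alignment between the alleles would enter each of them; its part was not tested.

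Spread among animals also differed between genes. A dispersion of 1 is what counting error alone gives, and the median was 1.42 over these SNPs and 1.40 over all autosomal SNPs. MATR3 47998067 had the highest value among SNPs with at least 5 fetuses, 23.4, with shares from 0.399 to 0.872 over 18 fetuses, followed by ACSM1 18189381 at 14.8 and NGLY1 38515665 at 12.6. STRAP, MPPE1 43101030 and ACTB were close to counting error, at 0.911, 0.722 and 1.0. In all, 75 SNPs in 37 genes (15% of those tested) had AI by both tests with the same allele higher in every fetus compared, at least 6 of them, beside 10.1% of all autosomal, 13% of missense, 12.9% of 3' UTR and 7.48% of synonymous SNPs. They were 45 in the 5' UTR and 30 upstream. Per fetus, the median reference share over these SNPs was 0.505 in fetus 5 to 0.545 in fetus 6.

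Positions in the table were set beside those of coding SNPs of the same gene. Lying outside the span of the coding SNPs cannot show that a SNP is at the front of its gene. Gene strand was not used, and a single coding SNP gives a span of no width. In 194 of the 264 genes all of these SNPs lay outside the span of the coding SNPs, in 5, INSR among them, at least 1 lay within it, in NBR1 they lay on both sides of it, and 64 genes have no coding SNP on that chromosome; in 25 of 35 genes with 3' UTR SNPs they lay on the opposite side of the coding SNPs. The upstream term depends on the annotation used, and SNPs with it carry reads here; 30 of the 189 upstream SNPs and 16 of the 313 5' UTR SNPs had a SNP of another gene within 5000 bp. Which transcript gave the reads at upstream SNPs was not tested. The median distance to a coding SNP of the same gene was 7406 bp for 5' UTR SNPs and 3548 bp for upstream SNPs. The 1 SNP of this kind on chromosome X, at TBL1Y, was left out; its share was 0.51 (adjusted p = 0.729).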

How the data were processed

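The deposited table holds a count of reads of each allele per SNP and fetus, in raw reads, with genotype calls. Per the submitters' processing notes, the authors aligned reads to Oar v3.1 with STAR (version not given), called SNPs with GATK 3.4-46 and annotated them with the Variant Effect Predictor. The column headed PS910 was taken as the fetus labelled RS910. Columns of the authors' own statistic, P, proportions and higher allele hold their comparisons and were not used. AI was tested on reads summed over fetuses called heterozygous by a Poisson likelihood ratio test, two-sided, with Benjamini-Hochberg adjustment over all autosomal SNPs. Per-fetus log2 ratios, with 0.5 added to each count and at least 10 reads, and differences from synonymous partners (genotype correlation of at least 0.8) were fitted in limma 3.58.1 (R 4.3.3). Single SNPs had exact two-sided sign-flip permutation tests. Calculations used Python 3.11.15, numpy 2.4.6, scipy 1.17.1 and pandas 2.3.3, and the procedures were tested on simulated data. The SNPs and the gene lists were chosen with earlier results of these data known. Genes named are those with the largest shares past both tests and the same allele higher in every heterozygous fetus (at least 6), the largest partner differences, the most reads, the most SNPs, both consequence terms, or the most reads within a list. Levels in rpm are relative to all autosomal SNP reads of a fetus and are not scaled by length. PCR copies among reads are not independent molecules. Alternatives changed the null, read minimums, SNPs kept and partner rules, and left out each fetus.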

Additional observations from a re-analysis of the deposited data

Results flagged for a closer look

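Reads outside the comparison of alleles gave 1 signal. At 34 SNPs, fetuses called homozygous had over 2% of their reads from the allele they were called to lack, where the median over all 502 SNPs was 0. Together with SNPs lacking homozygous fetuses or 20 reads from them, they make up 53 of the 502 SNPs, beside 2122 of 24111 autosomal SNPs. The 34 lie in 17 genes, among them INSIG2, MBNL1, NBR1, MATR3, LUC7L and SAR1A, and 26 of them have another SNP within 5 bp. The cause was not tested. With 18 fetuses in a single group, no fetus was tested for standing apart from the rest.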

How the results depend on the processing

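No paired comparison of conditions was possible because there is 1 group. Counts of SNPs with AI were 211 in all, 134 in the 5' UTR and 77 upstream. By limma they were 129, 82 and 47; the cause was not tested. With at least 20 reads of each allele they were 114, 64 and 50, and with 30 reads 86, 48 and 38. With 1 SNP per gene they were 99, 74 and 25. Fewer SNPs were tested with these read minimums and with 1 SNP per gene. The other settings gave 150 to 240 in all. Under the condition on homozygous fetuses, chosen after seeing the data, there were 157, 102 and 55 with p-values adjusted again over the SNPs kept, and 162 in all with the adjustment over every autosomal SNP. The share of these SNPs with the reference allele higher, 72.0%, was 56.3% with the centred null, 67.3% without SNPs within 5 bp of another and 66.9% under the condition on homozygous fetuses; the cause was not tested. The 24 differences from a synonymous SNP were 2 by the exact sign-flip permutation test, in which few fetuses limit the smallest p, and 16 to 28 in the other settings. Leaving out each fetus gave 199 to 215, 127 to 135 and 69 to 81 SNPs with AI, 19 to 26 differences, a median reference share of 0.515 to 0.52 and 70.4% to 73.7% with the reference allele higher. Of the values for named SNPs, the difference at MKKS turned to -0.04 with the nearest synonymous SNP; the cause was not tested. Depth limits the SNPs with few reads: a fetus with 20 reads gives a coarse share. Reads of the same fetus at adjacent SNPs are shared, and alignment of each allele to the genome was not analysed here.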
